A study of Mus musculus with 6 samples.

Results

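A set of 10 genes of mast cells and eosinophils was followed in whole thymus, all found by symbol among the 24054 genes of the count table: Cma1, Mcpt4, Tpsb2, Cpa3, Hdc, Kit, Fcer1a, Ms4a2, Epx and Prg2. The genes were chosen by name and were read in all 6 libraries. Messenger RNA came from 3 thymus samples of K5-rtTA:TetO-RANKL mice and 3 of control mice, whose series text calls them monogenic. K5-rtTA places a doxycycline-dependent activator under the keratin 5 promoter, used by basal and medullary epithelium, and TetO-RANKL answers to it with the cytokine RANKL. Doxycycline in food and water went to both groups, from 8 weeks of age for 1 week in the series text and from 9 weeks for 2 weeks in the sample text, so the true schedule is unsettled. Which of the transgenes a control carried, the strain and the sex are not given in the labels. Library totals were 18254870 to 25357060 reads in RANKL and 18654395 to 21453466 in control. Tnfsf11, the gene that encodes RANKL, stood at 2390 to 4812 CPM in RANKL and 6.01 to 8.89 CPM in control, where CPM is the depth-scaled read count, with TMM factors between libraries. Genes of double-positive thymocytes, the main cells of a normal thymus, summed to 308 to 1220 CPM in RANKL and 11788 to 13605 CPM in control.

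Mast cells are long-lived tissue cells that need signals through the receptor tyrosine kinase KIT. They store histamine and proteases in granules and release them when IgE bound to its high-affinity receptor is cross-linked. Connective tissue mast cells carry the chymases and tryptases encoded by Cma1, Mcpt4 and Tpsb2 with the carboxypeptidase encoded by Cpa3, whereas intestinal mucosal mast cells carry those of Mcpt1 and Mcpt2. Eosinophils are granulocytes that grow under interleukin 5 and carry a peroxidase and a basic protein in their granules, and the mouse thymus normally holds some of them. Basophils share the IgE receptor with mast cells, neutrophils can use Hdc, and early thymocyte precursors and melanocytes use Kit, so several of these genes do not belong to 1 cell type.

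The promoters are shown because the factors GATA1 and GATA2 take part in mast cell, basophil and eosinophil development. Shared regulation of the 10 genes was not tested. RefSeq gave a promoter for 8 of the 10 genes in GRCm38.p6, the assembly behind mm10. Prg2 and Tpsb2 are named only. The 250 bases before the start were searched on both strands for GATA letters, which were AGATAA with its variant AGATAG, and TGATAA with its variant TGATAG. They were also searched for the E-box letters that the mast cell factor MITF can bind, CACGTG with its variant CATGTG, and for TATAAA, the core of a TATA box. At least 1 GATA match was present in 6 of the 8 windows and in 27.1% of 27025 promoters of the same length. An E-box match was present in 1 of the 8 and in 17.6% of all, and TATAAA in 4 of the 8 and in 13% of all. Ms4a2 held 3 GATA matches, centred 8, 34 and 221 bases before the start, and Cpa3, Fcer1a, Mcpt4, Cma1 and Hdc held 1 each, centred 43, 89, 100, 76 and 218 bases before it. Epx held TATAAA and no GATA match, and Kit held none of the letters searched. The start is that of the promoter entry and is not always the outer end of the gene coordinates given below. The Hdc window, 126618679 to 126618928 on chromosome 2, lies wholly inside those of its gene. The windows of Ms4a2, Cpa3 and Fcer1a overlap theirs in part. The windows printed are chr1:173227230-173227479 for Fcer1a, chr19:11623720-11623969 for Ms4a2, chr3:20242182-20242431 for Cpa3, chr14:56062311-56062560 for Mcpt4, chr14:55944676-55944925 for Cma1 and chr11:87875537-87875786 for Epx. All 6 lie on the minus strand and are written 5′ to 3′ along the gene, with every match in capitals. A match describes letters and no binding was measured.
Fcer1a: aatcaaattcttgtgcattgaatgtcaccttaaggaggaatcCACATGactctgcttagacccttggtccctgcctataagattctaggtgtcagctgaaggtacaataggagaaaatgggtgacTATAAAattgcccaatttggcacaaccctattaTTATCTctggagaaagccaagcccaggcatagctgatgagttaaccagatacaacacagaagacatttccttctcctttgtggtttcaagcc
Ms4a2: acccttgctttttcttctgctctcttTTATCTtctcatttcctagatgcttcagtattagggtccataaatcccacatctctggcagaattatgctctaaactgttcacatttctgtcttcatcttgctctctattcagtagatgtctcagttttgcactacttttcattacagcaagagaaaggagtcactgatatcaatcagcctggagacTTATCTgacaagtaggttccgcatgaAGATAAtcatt
Cpa3: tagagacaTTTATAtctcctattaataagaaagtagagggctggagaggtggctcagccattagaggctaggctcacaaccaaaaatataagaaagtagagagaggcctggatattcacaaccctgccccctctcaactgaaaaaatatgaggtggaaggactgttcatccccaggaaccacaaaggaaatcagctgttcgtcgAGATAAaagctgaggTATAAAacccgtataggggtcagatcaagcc
Mcpt4: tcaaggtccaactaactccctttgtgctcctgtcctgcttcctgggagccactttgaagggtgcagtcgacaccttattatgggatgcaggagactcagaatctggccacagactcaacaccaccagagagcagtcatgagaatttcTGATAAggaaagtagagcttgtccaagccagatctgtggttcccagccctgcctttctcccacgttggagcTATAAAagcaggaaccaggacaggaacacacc
Cma1: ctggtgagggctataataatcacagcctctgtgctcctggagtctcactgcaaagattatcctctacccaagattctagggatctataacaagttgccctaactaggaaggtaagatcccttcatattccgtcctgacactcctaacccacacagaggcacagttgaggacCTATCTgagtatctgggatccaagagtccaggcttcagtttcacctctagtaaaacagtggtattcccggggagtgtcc
Epx: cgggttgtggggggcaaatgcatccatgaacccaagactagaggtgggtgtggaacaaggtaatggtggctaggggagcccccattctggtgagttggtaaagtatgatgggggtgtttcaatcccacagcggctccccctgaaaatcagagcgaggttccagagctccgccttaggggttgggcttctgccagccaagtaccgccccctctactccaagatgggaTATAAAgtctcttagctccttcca

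All 10 genes were higher in RANKL thymus. Each passed edgeR's quasi-likelihood test at an adjusted p under 0.05, and for each of them every RANKL library lay above every control library. Such changes were frequent in these data: of 16096 genes tested 33.8% were called higher, 29.6% lower and 63.4% either way, and 36.1% had all RANKL libraries above all control libraries. The median log2 fold change was 1.81 over the 10 genes and -0.02 over all genes tested. The low-count filter kept all 10, but Epx, Fcer1a and Ms4a2 had under 10 reads in every control library, so these 3 passed it through the RANKL libraries and had to differ to be tested. The same held for 1 or 2 tested genes in each of the connective tissue mast cell, IgE receptor, growth factor, transcription factor, neutrophil and innate lymphoid lists given later. Without a filter all 10 were also called. In whole tissue, a change in the number of cells and a change in RNA per cell cannot be told apart. CPM is a relative measure, so neither can be told apart from a fall of other RNA. The double-positive thymocyte genes fell in these libraries, as given above.

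**Figure D1:**
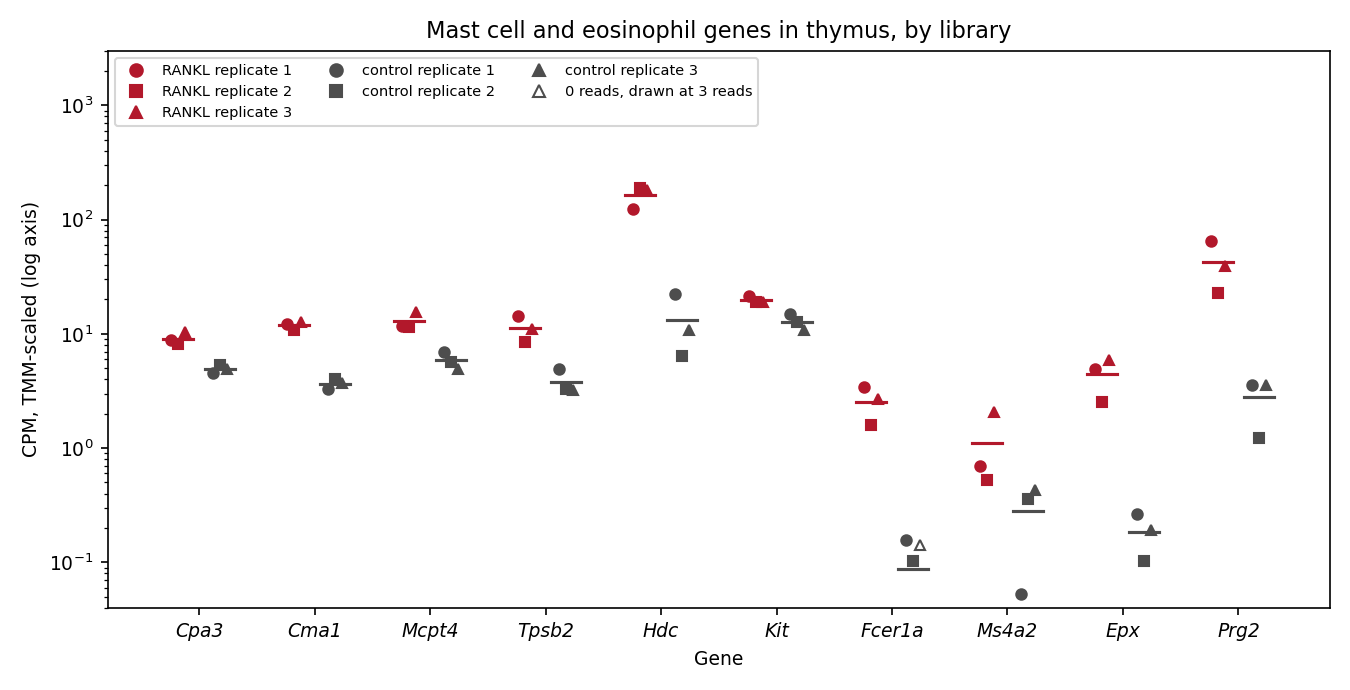
CPM of the 10 genes on a log axis, with RANKL libraries in red left of control libraries in grey, marker shape giving the replicate and a line the group mean. The 3 RANKL libraries lie above the 3 control libraries for each gene; Fcer1a had 0 reads in control replicate 3, drawn open at 3 reads.

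The 4 granule protease genes rose by 1.84-fold to 3.23-fold. Among RANKL libraries the highest was between 1.16 (Cma1) and 1.71 (Tpsb2) times the lowest. Among control libraries it was between 1.18 (Cpa3) and 1.51 (Tpsb2) times the lowest. Cma1 (chromosome 14, 55941451 to 55944675), which encodes the chymase also called mast cell protease 5, had 12.3, 10.8 and 12.6 CPM in the RANKL libraries and 3.27, 4.02 and 3.73 CPM in the control libraries. The groups lay far apart, and the mean was 11.9 ± 0.943 CPM in RANKL and 3.67 ± 0.379 CPM in control (SD, n = 3 each), or 3.23-fold (log2 1.69 with a standard error of 0.24, given after ± for log2 values from here on; edgeR adjusted p = 0.000253). Tpsb2 (chromosome 17, 25366308 to 25368096), a tryptase gene, had 14.4, 8.42 and 10.98 CPM in RANKL and 4.90, 3.30 and 3.25 CPM in control. RANKL replicate 1 and control replicate 1 were the highest of their groups, and the log2 fold change was 1.56 ± 0.30 (edgeR adjusted p = 0.00157). Mcpt4 (chromosome 14, 56059744 to 56062310), a chymase regarded as the functional counterpart of human chymase, had 11.7, 11.5 and 15.5 CPM in RANKL and 6.96, 5.62 and 4.97 CPM in control. Its log2 fold change was 1.14 ± 0.25 (edgeR adjusted p = 0.00312). Cpa3 (chromosome 3, 20215616 to 20242209), the mast cell carboxypeptidase, had 8.83, 8.09 and 10.3 CPM in RANKL and 4.53, 5.36 and 4.87 CPM in control. It changed least of the 4, by a log2 fold change of 0.88 ± 0.25 (edgeR adjusted p = 0.0109). Without RANKL replicate 3 it no longer passed (adjusted p = 0.0505).

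Added together, reads of the 4 proteases made 47.3, 38.8 and 49.3 CPM in the RANKL libraries and 19.7, 18.3 and 16.8 CPM in the control libraries. Their mix also differed. Cma1 made 25.5% to 27.9% of the sum in RANKL and 16.6% to 22.2% in control, and Cpa3 made 18.7% to 20.9% in RANKL and 23.1% to 29.3% in control; neither pair of ranges overlapped. The shares of Mcpt4 and Tpsb2 overlapped between the groups. Read sharing between near copies was limited in the annotated transcripts: 5.48% of the stretches of 50 bases in Mcpt4 also occurred in other genes, mostly Cma2, 5.38% of those in Cma1, mostly in Gm48934, and none of those in Tpsb2 or Cpa3.

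Hdc (chromosome 2, 126593659 to 126624025), which encodes histidine decarboxylase, the enzyme that makes histamine, had 123, 190 and 182 CPM in the RANKL libraries and 22.5, 6.39 and 10.8 CPM in the control libraries. The lowest RANKL library was 5.48-fold above the highest control library, and the log2 fold change was 3.64 ± 0.42 (edgeR adjusted p = 7.59e-05). Control replicate 1 stood above the other controls, and without it the log2 fold change was 4.23. Hdc is not confined to mast cells, and the neutrophil list moved with it: all 15 of its tested genes rose, its summed level was 3639 to 6931 CPM in RANKL and 49.6 to 98.5 CPM in control, and none of its genes was at 0. RANKL replicate 2 held the highest level of both Hdc and the neutrophil sum, while the lowest Hdc was in replicate 1 and the lowest sum in replicate 3. The part of neutrophils in the Hdc level was not tested.

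Kit (chromosome 5, 75574987 to 75656722), the receptor for stem cell factor, had 21.4, 19.1 and 18.8 CPM in the RANKL libraries and 14.8, 12.7 and 10.7 CPM in the control libraries. The difference was the smallest of the 10, a log2 fold change of 0.63 ± 0.20 (edgeR adjusted p = 0.0208). The call was lost without control replicate 2 (adjusted p = 0.0612), control replicate 3 (0.0572) or RANKL replicate 1 (0.0524). Genes of early thymic and haematopoietic progenitors, a list that holds Kit, rose in 11 of 13 tested, with a median log2 fold change of 0.95 and a sum of 1746 to 2177 CPM in RANKL and 284 to 333 CPM in control. In RANKL that sum was mostly Ly6a, a surface protein of many cell types, at 1255 ± 166 CPM in RANKL and 127 ± 35.9 CPM in control; Lyl1, a progenitor transcription factor, rose by 1.37 ± 0.24 on the log2 scale. Melanocyte genes, which also hold Kit, rose in 3 of 5 tested and summed to 42.6 to 51.0 CPM in RANKL and 21.3 to 27.2 CPM in control. The 3 were Kit itself, Mitf, which is also in the connective tissue mast cell list, and Sox10, which rose by 2.95 ± 0.65 on the log2 scale. Pmel and Mlana were not called. Most of the sum was Kit and Mitf, with Mitf at 17.4 ± 1.25 CPM in RANKL and 6.84 ± 1.26 CPM in control. Tyr, the tyrosinase that makes pigment, had 1, 2 and 1 reads in RANKL and 0 in each control. Tyrp1 had 5, 3 and 12 reads in RANKL and 0, 0 and 1 in control. Slc45a2 had 13, 3 and 15 in RANKL and 2, 1 and 1 in control. Dct had 3, 7 and 11 in RANKL and 6, 3 and 6 in control, and overlapped. All of these were too low to test with all libraries. The part of progenitors or melanocytes in the Kit level was not tested.

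The IgE receptor genes were scarce in control thymus. Fcer1a (chromosome 1, 173221269 to 173227232), the chain that binds IgE, had 3.39, 1.59 and 2.69 CPM in the RANKL libraries and 0.158, 0.103 and 0 CPM in the control libraries. These were 63, 39 and 57 reads in RANKL and 3, 2 and 0 reads in control, and a floor of 3 reads was 0.143 CPM in control replicate 3. From group sums of 159 and 5 reads the ratio of RANKL to control was 29.3, with a 95% exact interval for counting error of 12.3 to 91.4. The log2 fold change was 4.81 ± 0.70 (edgeR adjusted p = 0.000287), the largest of the 10, and was 5.49 without control replicate 1 and 4.21 without control replicate 3. Ms4a2 (chromosome 19, 11615517 to 11623790), the signal-amplifying beta chain, had 13, 13 and 44 reads in RANKL and 1, 7 and 9 reads in control, or 1.10 ± 0.847 CPM in RANKL and 0.281 ± 0.201 CPM in control. RANKL replicate 3 stood apart, and the lowest RANKL library lay 1.23-fold above the highest control in CPM. Of its stretches of 50 bases, 2.69% also occurred in other genes, mostly Ms4a4b. The log2 fold change was 1.93 ± 0.74 (edgeR adjusted p = 0.043) and 1.11 without RANKL replicate 3 (adjusted p = 0.235), and the call was also lost without any single control library, with adjusted p of 0.0631 to 0.115. Fcer1g, the signalling chain shared with other Fc receptors and made by many myeloid cells, rose to 158 ± 27.8 CPM in RANKL, against 24.5 ± 3.90 CPM in control.

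Both eosinophil granule genes rose strongly. Prg2 (chromosome 2, 84980461 to 84983632), which encodes major basic protein, had 65.0, 22.9 and 39.1 CPM in the RANKL libraries and 3.59, 1.24 and 3.54 CPM in the control libraries, a log2 fold change of 3.92 ± 0.48 (edgeR adjusted p = 9.69e-05). Epx (chromosome 11, 87863997 to 87875536), eosinophil peroxidase, had 4.95, 2.52 and 5.94 CPM in RANKL and 0.264, 0.103 and 0.191 CPM in control, a log2 fold change of 4.54 ± 0.54 (edgeR adjusted p = 8.33e-05). The lowest RANKL library lay 6.39-fold above the highest control library for Prg2 and 9.56-fold for Epx. The Epx reads were 92, 62 and 126 in RANKL and 5, 2 and 4 in control, a ratio of 23.4 with a 95% exact counting interval of 12.9 to 47.5. In both genes replicate 2 was the lowest RANKL library and control replicate 2 the lowest control. RANKL replicate 2 was also the lowest RANKL library for Cpa3, Cma1, Mcpt4, Tpsb2, Fcer1a and Ms4a2, whereas Hdc was highest there and Kit lowest in replicate 3.

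**Figure D2:**
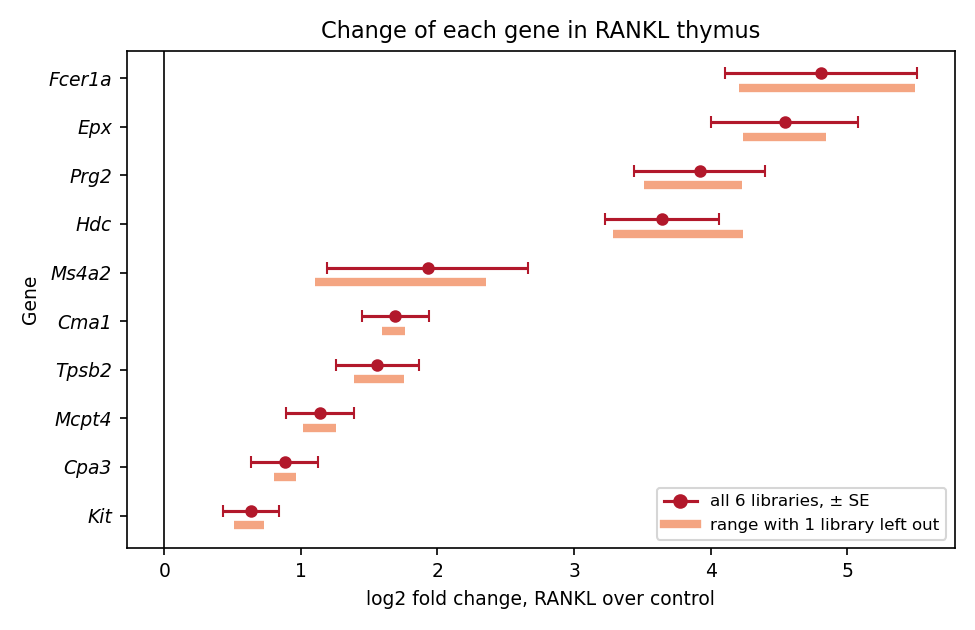
Log2 fold change of RANKL over control for each gene, as a point with its standard error from all 6 libraries and a bar for the range with 1 library left out. Fcer1a, Epx, Prg2 and Hdc lie between 3.64 and 4.81, the 4 proteases and Ms4a2 between 0.88 and 1.93, and Kit at 0.63.

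Levels were set against each other per kilobase of the longest coding transcript. The order depends on that choice. All annotated exons of Hdc span 6389 bases and its longest coding transcript 2392, whereas both lengths are 838 for Prg2. By all exons, the Hdc mean would lie below that of Prg2 in RANKL. In control it would lie below those of Mcpt4, Cpa3, Cma1, Prg2 and Tpsb2. Which length the counted reads follow was not tested. In RANKL, Hdc at 69.0 ± 15.3 and Prg2 at 50.5 ± 25.3 CPM per kilobase came first with overlapping libraries, and no library of Mcpt4, the next at 11.6 ± 2.01, reached them. Mcpt4, Cma1, Tpsb2 and Cpa3 followed, neighbours overlapping, down to 6.27 ± 0.784 for Cpa3, and then Kit at 3.77 ± 0.275, Fcer1a at 2.56 ± 0.912 and Epx at 1.66 ± 0.654, the last 2 overlapping. Ms4a2 was lowest at 0.460 ± 0.354. In control the range was narrower at the top: Hdc at 5.53 ± 3.47 and Mcpt4 at 5.28 ± 0.916 CPM per kilobase overlapped, and Cpa3, Cma1, Prg2, Tpsb2 and Kit followed from 3.40 ± 0.287 to 2.43 ± 0.387 with each neighbour overlapping the next. Ms4a2, Fcer1a and Epx lay apart from these at 0.118 ± 0.0840, 0.0873 ± 0.0804 and 0.0691 ± 0.0299 CPM per kilobase and overlapped among themselves. By the longest coding transcript, Prg2 thus ranked 2 in RANKL and 5 in control, and Ms4a2 ranked 10 in RANKL and 8 in control.

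The reads of the other genes were also counted per read of the 4 proteases, which does not depend on library size. Hdc had 2.61, 4.91 and 3.69 reads per protease read in RANKL and 1.14, 0.349 and 0.645 in control. Prg2 had 1.38, 0.590 and 0.793 in RANKL and 0.182, 0.0676 and 0.210 in control, Epx 0.0650 to 0.120 in RANKL and 0.00563 to 0.0134 in control, and Fcer1a 0.0409 to 0.0718 in RANKL and 0 to 0.00804 in control. For these 4 genes every RANKL ratio lay above every control ratio. Kit went the other way, with 0.381 to 0.492 in RANKL and 0.636 to 0.751 in control, and Ms4a2 overlapped, with 0.0136 to 0.0420 in RANKL and 0.00268 to 0.0256 in control. Over the 9 ratios computed, whose protease sum and 3 genes outside the 10 were chosen after values were seen, the two-sided exact permutation p was 0.1 in 8, the smallest that 3 libraries against 3 can give (0.112 after adjustment), and 0.6 for Ms4a2.

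**Figure D3:**
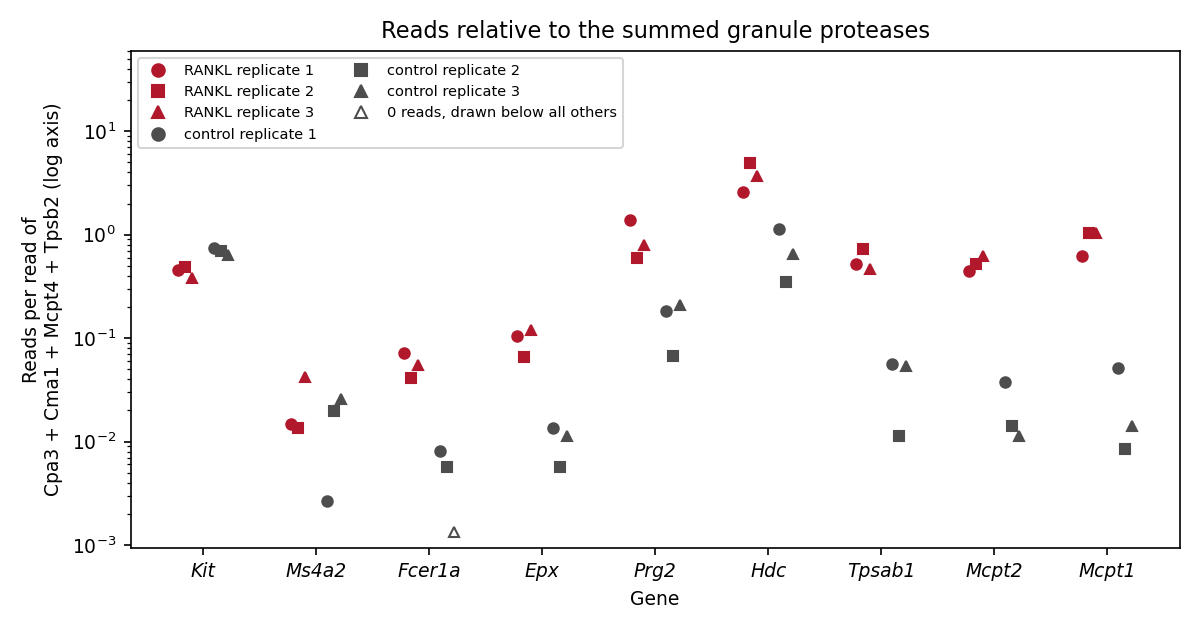
Reads of each gene per summed read of Cpa3, Cma1, Mcpt4 and Tpsb2, on a log axis, for RANKL libraries in red left of control libraries in grey. All genes but Kit and Ms4a2 have every RANKL library above every control library; Kit has every RANKL library below, from 0.381 to 0.492 against 0.636 to 0.751 in control.

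The other mast cell genes moved by very different amounts. Of 16 tested connective tissue mast cell genes, 8 of them among the 10, 15 rose and 1 was not called, with a median log2 fold change of 1.63. Tpsab1, the tryptase gene beside Tpsb2, rose to 25.2 ± 2.62 CPM in RANKL, against 0.740 ± 0.473 CPM in control. Srgn, the core protein that holds proteases in granules and that most blood cells make, rose 10.2-fold, Rab27b, a granule-release GTPase, by 2.94 ± 0.26 on the log2 scale, and the transcription factor Gata2 by 2.21 ± 0.31. Mrgprb2, a receptor that defines connective tissue mast cells, and its relative Mrgprb1 had 6 to 10 reads in RANKL and 1 to 6 in control and were too low to test. Tph1, which makes serotonin, was the gene not called, at 0.83 ± 0.38. Of 4 genes of the mucosal list tested, Mcpt1 and Mcpt2 rose. Mcpt1, mucosal mast cell protease 1, had 29.3, 40.3 and 51.2 CPM in RANKL and 1.00, 0.155 and 0.239 CPM in control, a log2 fold change of 6.44 ± 0.52 (edgeR adjusted p = 1.22e-05), or 7.60 without control replicate 1. Mcpt2 had 20.8, 20.3 and 30.5 CPM in RANKL and 0.738, 0.258 and 0.191 CPM in control, a log2 fold change of 5.91 ± 0.45, or 6.68 without control replicate 1. Per read of the 4 proteases, Mcpt1 made 0.621 to 1.04 in RANKL and 0.00845 to 0.0509 in control. The integrin genes of that list, Itgae and Itgb7, which T cells also use, were not called, at 0.26 ± 0.22 and -0.51 ± 0.24, and Mcpt9 had 13, 7 and 11 reads in RANKL and 1, 0 and 0 in control, too few to test with all libraries; its ratio was 28.5, with a 95% exact counting interval of 4.76 to 1164.

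Basophil genes rose in 11 of 11 tested, 3 of them among the 10, with a median log2 fold change of 2.21 and a sum of 92.0 to 173 CPM in RANKL and 24.1 to 25.2 CPM in control. Of the 11, Mcpt8, Fcer1a and Ms4a2 had under 10 reads in every control library and had to be higher to be tested. Il3ra, the interleukin 3 receptor chain, rose by 1.61 ± 0.21, and Osm, a cytokine that other myeloid cells also make, by 3.72 ± 0.45. In RANKL most of the sum came from Osm at 66.9 ± 41.6 CPM and Il3ra at 22.9 ± 0.897 CPM. The proteases that define mouse basophils, named here after their values were seen, were scarce: Mcpt8 had 20, 33 and 48 reads in RANKL and 4, 0 and 2 in control, and Prss34 had 68, 58 and 73 in RANKL and 10, 3 and 1 in control. Both were called higher, at 3.87 ± 0.72 and 3.69 ± 0.64, or 4.80 and 4.88 without control replicate 1. The basophil receptor gene Cd200r3 had 4 to 7 reads in RANKL and 4 to 10 in control. The part of basophils in the levels of Fcer1a, Ms4a2 and Cpa3 was not tested.

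Eosinophil genes rose in 14 of 14 tested, 2 of them among the 10, with a median log2 fold change of 4.23 and a sum of 402 to 594 CPM in RANKL and 34.0 to 55.8 CPM in control. Of the 14, 6 had under 10 reads in every control library, entered the test through the RANKL libraries and so had to be higher to be tested. The other 8 all rose, with a median log2 fold change of 3.20. Siglec5, the name in the table for Siglecf, the lectin used to identify mouse eosinophils, had 7.64, 21.8 and 35.7 CPM in RANKL and 0.264, 0.103 and 0.143 CPM in control, a log2 fold change of 6.96 ± 0.69 (edgeR adjusted p = 3.08e-05). Ear1, an eosinophil ribonuclease with near-identical relatives that may share its reads, had 22.3, 6.79 and 11.9 CPM in RANKL and 0.0527, 0.0515 and 0.239 CPM in control, a log2 fold change of 6.79 ± 0.67, or 7.86 without control replicate 3. Alox15, a lipoxygenase that macrophages also make, rose 12.2-fold, and Cd300lf, an inhibitory receptor of myeloid cells, 33.4-fold. With Emr1, the older symbol of Adgre1 and also in the macrophage list, they made most of the list's sum in every library. In RANKL they stood at 133 ± 31.0 CPM for Alox15, 150 ± 76.8 CPM for Cd300lf and 68.2 ± 4.44 CPM for Emr1. Ear2 had 12 to 17 reads in RANKL and 0 in control, at least 4.52-fold higher if each control library is set to the floor of 3 reads, and was too low to test. Ear6 had 16 to 37 reads in RANKL and 0 in control, at least 8.60-fold higher by the same floor; with that bound in place of its fitted value the list median was 3.77. The RANKL libraries were ordered differently within the list: Epx, Prg2, Ear1 and Prg3 (9.42, 4.19 and 6.41 CPM), which encode granule proteins, were lowest in replicate 2, whereas Siglec5, Cd300lf and the eotaxin receptor Ccr3 (9.58, 28.3 and 43.4 CPM) were lowest in replicate 1. Prg3 and Ccr3 were picked for this after their values were seen.

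**Figure D4:**
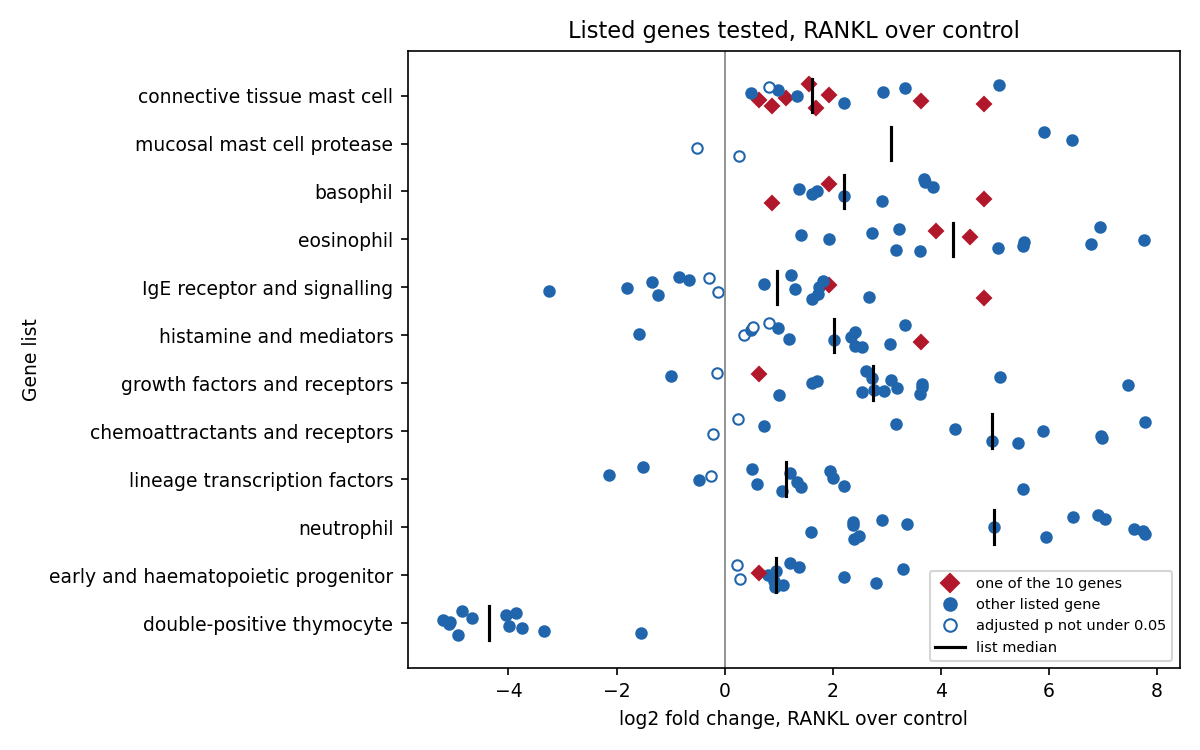
Log2 fold change of RANKL over control for each tested gene of 12 lists, with the 10 genes as red diamonds, other genes in blue, open symbols where the adjusted p was not under 0.05 and a black bar at each list's median. Mcpt1 and Mcpt2 lie near 6, apart from most connective tissue mast cell genes (median 1.63), and the eosinophil list has its median at 4.23. Of its 14 tested genes, 6 had under 10 reads in every control library, and the other 8 had a median of 3.20.

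Genes of IgE receptor signalling split: of 18 tested, 10 were higher, 6 were lower and 2 were not called (median log2 fold change 0.97). Fcer1a and Ms4a2 are among the 10 higher. Without them, of 16 tested, 8 were higher, 6 lower and 2 not called, with a median of 0.30. The kinases Lyn and Btk, the phospholipase Plcg2, the adaptors Gab2 and Lat2 and the kinase Syk rose with the receptor chains, Lyn by 1.76 ± 0.18, Plcg2 by 1.82 ± 0.21 and Gab2 by 1.73 ± 0.20, and all of these are also used by B cells or myeloid cells. The 6 that fell, named because of their direction, were Lat, Lcp2, Plcg1, Fyn, Stim1 and Ptpn6. T cells use these genes as well. Lat had 80.0 ± 51.8 CPM in RANKL and 764 ± 131 CPM in control, a log2 fold change of -3.25 ± 0.42, or -3.88 without RANKL replicate 3. Ptpn6 lost its call without RANKL replicate 1 (adjusted p = 0.0536). Double-positive thymocyte genes fell beside them in 12 of 12 tested, at a median log2 fold change of -4.35 (-5.13 if RANKL replicate 3 is left out), and their part in these decreases was not tested.

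Genes that make, store or clear histamine and lipid mediators rose in 11 of 15 tested, with 1 lower, 3 not called and a median log2 fold change of 2.03. Without Hdc, 10 of 14 rose, with a median of 1.61. Alox5 and Alox5ap, which start leukotriene synthesis, rose by 2.55 ± 0.29 and 2.41 ± 0.26, and Ltc4s, leukotriene C4 synthase, by 2.41 ± 0.28. Genes of both histamine-degrading enzymes, named after their values were seen, rose as well: Aoc1, diamine oxidase, to 46.0 ± 7.53 CPM in RANKL, against 5.52 ± 4.35 CPM in control (log2 fold change 3.06 ± 0.47, or 3.90 without control replicate 1), and Hnmt, histamine methyltransferase, to 8.77 ± 2.70 CPM in RANKL, against 2.14 ± 0.337 CPM in control. Slc18a2, the pump that loads histamine into granules, had 7.94 ± 3.13 CPM in RANKL and 4.01 ± 0.945 CPM in control, and passed the test (adjusted p = 0.0325), but not without control replicate 1 (0.0982), control replicate 3 (0.0804) or RANKL replicate 3 (0.161). Hrh3, a histamine receptor, was the gene that fell, with 0.827 ± 0.323 CPM in RANKL and 2.49 ± 0.793 CPM in control.

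Growth and survival factors of these cells and their receptors rose in 16 of 18 tested, with 1 lower, 1 not called and a median log2 fold change of 2.75. Csf2rb, the beta chain shared by the receptors for interleukins 3 and 5 and GM-CSF, had 335, 445 and 379 CPM in RANKL and 64.9, 45.3 and 40.5 CPM in control. Il1rl1, the interleukin 33 receptor, rose 12.7-fold, and Csf2ra and Csf2rb2 by 2.55 ± 0.24 and 2.77 ± 0.29 on the log2 scale. Of the ligands, named after their values were seen, Il5 had 100, 40 and 91 reads in RANKL and 11, 6 and 9 in control. Its log2 fold change was 3.08 ± 0.54 (edgeR adjusted p = 0.000845). Il5 was lowest in RANKL replicate 2, as were Epx, Prg2, Cpa3, Cma1, Mcpt4, Tpsb2, Fcer1a and Ms4a2. Hdc, Kit and the eosinophil genes Siglec5, Cd300lf and Ccr3 were lowest in another RANKL library. A link between Il5 and the eosinophil genes was not tested. Il33 rose by 3.66 ± 0.39, or 3.05 without RANKL replicate 2. Il3 had 21, 17 and 30 reads in RANKL and 0 in each control library, at least 7.09-fold higher by the floor used for Ear2. Il9 had 119 reads in RANKL and 3 in control, a ratio of 36.5 with a 95% exact counting interval of 12.2 to 180, and its control reads were all in replicate 3. Kitl, which encodes stem cell factor, the ligand of KIT, was the gene not called, at 16.0 ± 2.90 CPM in RANKL and 17.5 ± 3.18 CPM in control (log2 fold change -0.13 ± 0.23, edgeR adjusted p = 0.633). Il9r was the gene called lower, at -0.99 ± 0.37, and lost its call without any 1 of 4 libraries (adjusted p 0.0881 to 0.104).

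Chemoattractants and their receptors rose in 9 of 11 tested, with 2 not called and a median log2 fold change of 4.96. Ccl11, eotaxin, had 853, 1001 and 811 CPM in RANKL and 20.8, 21.1 and 19.4 CPM in control, a log2 fold change of 5.44 ± 0.20 (edgeR adjusted p = 1.62e-06). Ccl24, another eotaxin, had 151, 507 and 365 CPM in RANKL and 2.74, 2.27 and 3.01 CPM in control. Ccl8, a chemokine that draws several leukocyte types, rose 19.3-fold. Ccl5 and Ptgdr2, the prostaglandin D2 receptor of eosinophils and basophils, were not called, at -0.21 ± 0.31 and 0.25 ± 0.60, and Ccl26 had 0 reads in all libraries.

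Lineage transcription factors rose in 10 of 14 tested, with 3 lower, 1 not called and a median log2 fold change of 1.15. Gata2 had 155, 172 and 160 reads in RANKL and 40, 26 and 31 in control. Cebpe, needed for granulocyte granules, had 94, 139 and 240 reads in RANKL and 6, 2 and 1 in control, a log2 fold change of 5.53 ± 0.62, or 6.49 without control replicate 1. Spi1, a myeloid factor, rose by 2.01 ± 0.20 and Trib1, which eosinophil development needs in mice, by 1.95 ± 0.27. Stat5b, a signal transducer of the interleukin 5 receptor and of many others, fell to 90.9 ± 21.4 CPM in RANKL, against 398 ± 44.2 CPM in control. Gata1, named after its values were seen, had 40, 91 and 184 reads in RANKL and 32, 25 and 51 in control. The groups overlapped in reads and in CPM. Its call (1.42 ± 0.52, edgeR adjusted p = 0.036) was lost without RANKL replicate 3 (0.218) or any single control library (0.0509 to 0.121).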

How the data were processed

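Total RNA of whole thymus was made into stranded mRNA libraries from 250 ng, per the labels' protocols. The authors deposited raw counts of reads per gene; STAR and mm10 are named, per the submitters' processing notes. Counting tool, strand setting, annotation and read length: not given in the sources used here. Column names matched sample titles. Replicate numbers follow accession order and carry no pairing. No label says that libraries came from separate animals, so a p-value reflects only the spread of these samples, which may be technical.

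Genes kept by filterByExpr were scaled by TMM factors and tested in edgeR 4.0.16 (R 4.3.3) with the robust quasi-likelihood fit, two-sided and without covariates. P-values were adjusted by Benjamini-Hochberg over all 16096 genes tested, at a threshold of 0.05. Standard errors come from the F statistic. CPM used TMM-scaled totals of the tested genes. Counting intervals and the floor of 3 reads cover counting error only. The fit was tested on simulated counts.

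The genes and all lists were chosen with earlier results of these data known. The named genes were the 10, up to 4 others per list with the smallest p, and listed genes too low to test. Chosen after their values were seen were Tph1, Mcpt8, Prss34, Prg3, Ear6, Ccr3, Il5ra, Btk, Lat2, Syk, Lat, Lcp2, Plcg1, Fyn, Stim1, Ptpn6, Aoc1, Hnmt, Slc18a2, Hrh3, Il5, Il33, Il3, Il9, Kitl, Il9r, Ccl5, Ptgdr2, Gata1, Gata3, Il17rb and Timd4. Older symbols were matched through RefSeq synonyms (Emr1 for Adgre1, Siglec5 for Siglecf); Mcpt8l, Clc and Ly6g were not found. Coordinates and promoters are from RefSeq GRCm38.p6, transcript lengths and shared stretches from GENCODE M21, and figures were drawn with matplotlib 3.10.9. Alternatives used limma 3.58.1, DESeq2 1.42.0, other factors and filters, a block on the range of the title number, and each library left out.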

Additional observations from a re-analysis of the deposited data

How the results depend on the processing

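All 10 genes kept their direction in the 11 processing alternatives and with each library left out. The count called higher was 7 to 10 over the processing alternatives and 8 to 10 with 1 library left out. Ms4a2 lost its call with limma-voom (adjusted p = 0.0578) and when the ranges of numbers in the titles were blocked (0.0756). Cpa3, Kit and Ms4a2 lost theirs at a threshold of 0.01 and in a test against a 1.5-fold change (0.0923, 0.313 and 0.0793). The call of Kit was lost without any 1 of 3 libraries, that of Cpa3 without 1 and that of Ms4a2 without any 1 of 4, as given above. Over all genes, 2654 were lower in the test against a 1.5-fold change, against 4765 in the test against no change, since that test asks for a larger change. Upper-quartile factors moved the median log2 fold change of all genes by 0.10 and the other factors by less than that. With 1 library left out, 183 counts of listed genes called stayed within 1.5 times the count from all libraries and 9 did not. The 183 include counts that were 0 and stayed 0. They also include falls such as that from 15 to 11 connective tissue mast cell genes called higher, without control replicate 3. No paired analysis was possible because the labels give no replicate numbers that groups share. Low depth limits Fcer1a, Ms4a2 and Epx most, whose control libraries held 0 to 9 reads each.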

Other observations

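Genes of group 2 innate lymphoid cells, a source of the cytokines that mast cells and eosinophils answer to, rose in 8 of 10 tested and fell in 2, with a median log2 fold change of 2.61. Il13, a type 2 cytokine that T cells and mast cells also make, had 650, 627 and 950 reads in RANKL and 104, 46 and 75 in control. Areg, an epidermal growth factor receptor ligand, had 63, 172 and 102 reads in RANKL and 4, 2 and 1 in control, a log2 fold change of 5.35 ± 0.57, or 5.96 without control replicate 1. Gata3 and Il17rb fell, to 19.7 ± 6.04 and 4.87 ± 1.85 CPM in RANKL, against 75.7 ± 8.81 and 31.2 ± 13.1 CPM in control; thymocytes use Gata3 too.

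Macrophage genes rose in 11 of 15 tested, with 3 not called and a median log2 fold change of 1.43; the 1 gene called lower, Timd4, lost its call without any 1 of 4 libraries. They summed to 2949 to 4156 CPM in RANKL and 1314 to 1687 CPM in control. Thymic epithelial genes rose in 7 of 10 and fell in 3, and summed to 5059 to 6140 CPM in RANKL and 2119 to 2626 CPM in control. The median change of the connective tissue mast cell list was 1.63. It and the medians of these lists were each below the 4.23 of the eosinophil list and the 4.998 of the neutrophil list. With Ear6 at its bound the eosinophil median was 3.77. Genes under 10 reads in every control library had to be higher to be tested. Over the other tested genes the medians were 1.45 for connective tissue mast cells, 3.20 for eosinophils and 5.48 for neutrophils. The differences between lists were not tested.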
